A study of Homo sapiens with 14 samples.

Results

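HS3ST1, the gene of a heparan sulfate 3-O-sulfotransferase, and 9 other genes of heparan sulfate synthesis were followed in human aortic endothelial cells after 2 treatments aimed at CALCRL, which encodes the calcitonin receptor-like receptor. The 10 genes were taken by name: HS3ST1, EXT1, EXT2, EXTL2, EXTL3, NDST1, HS2ST1, HS6ST1, GLCE and B3GAT3. All 10 were listed in both deposited tables, out of 11261 genes after siRNA and 11835 after the deletion. HS3ST1 was chosen by its log2 fold change after CALCRL siRNA, so its siRNA values are given as a description without a test. The other 9 were chosen for their place in the pathway, with earlier results of these data known.

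The cells were teloHAEC, an aortic endothelial line immortalised with telomerase, and 14 libraries of 3' end RNA sequencing were made from them. In the siRNA arm, 4 libraries of cells reverse transfected with siRNA against CALCRL were set against 4 of cells given scrambled siRNA, with lysis after 24 hours. In the deletion arm, 3 libraries of cells electroporated with Cas9 and guides flanking the enhancer (enhancer-8 in the series' design text) were set against 3 of cells given Cas9 and a control guide against HPRT, with collection after 2 days. Both groups of the deletion arm were therefore given Cas9 with a cutting guide. The labels name no selection of edited clones, and the edited share of the cells is not analysed here. The files hold 1 comparison per arm and no value for a single library, so spread is given by the deposited standard error (SE). Whether replicates came from separate cultures is not stated, and the p-values then measure only the spread between these libraries. In such bulk samples fewer cells with a transcript and less RNA per cell cannot be told apart.

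Heparan sulfate is a sulfated sugar chain carried by proteoglycans of the cell surface and of the vascular basement membrane. A linkage sugar unit is built first, EXT proteins then polymerise the chain, and NDST, GLCE, HS2ST, HS6ST and HS3ST enzymes modify it in turn. On endothelium the chains bind growth factors and chemokines, and chains carrying the rare 3-O-sulfate made by HS3ST1 bind antithrombin.

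HS3ST1 (ENSG00000002587) is annotated on chromosome 4, minus strand, at 11393150 to 11429765 (GRCh38, GENCODE release 29). HS2ST1 (ENSG00000153936) is on chromosome 1, plus strand, at 86914648 to 87109998, and GLCE (ENSG00000138604) on chromosome 15, plus strand, at 69160584 to 69272217. All 3 are protein-coding genes. The upstream sequence of HS2ST1 and GLCE is shown because these members passed the threshold after the deletion. Each line is the 250 bases before the RefSeq start (GRCh38.p14), written in the direction of transcription, with matches to the GC box GGGCGG on either strand in capitals. The windows are chr1:86914385-86914634 (plus) and chr15:69160385-69160634 (plus). RefSeq and GENCODE place some starts differently: 51 bases of the GLCE window lie in a GENCODE exon. The HS3ST1 window, chr4:11428895-11429144 (minus), lies with all 250 bases in an annotated GENCODE UTR exon, so it was searched but its sequence is not shown.
HS2ST1: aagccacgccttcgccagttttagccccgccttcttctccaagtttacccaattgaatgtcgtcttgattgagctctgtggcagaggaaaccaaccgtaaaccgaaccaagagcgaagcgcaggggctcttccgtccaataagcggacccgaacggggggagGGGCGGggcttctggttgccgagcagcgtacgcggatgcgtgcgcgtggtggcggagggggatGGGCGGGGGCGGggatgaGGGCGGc
GLCE: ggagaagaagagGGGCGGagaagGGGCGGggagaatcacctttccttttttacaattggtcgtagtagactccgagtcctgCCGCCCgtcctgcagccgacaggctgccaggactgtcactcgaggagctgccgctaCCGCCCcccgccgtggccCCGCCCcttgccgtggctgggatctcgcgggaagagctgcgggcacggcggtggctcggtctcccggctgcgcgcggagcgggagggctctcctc

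The GC box had 1 match in HS3ST1, 4 in HS2ST1 and 5 in GLCE, and 42.6% of the 35116 windows in the table held at least 1 match. That share does not gauge counts above 1. Of the members called in neither arm, HS6ST1 had 7 matches, B3GAT3 3, EXTL2 1, NDST1 1 and EXT2 from 0 to 2 by window. GC content was 73.2% in the HS3ST1 window, 63.2% in HS2ST1 and 68.8% in GLCE, against a median of 58% over all windows. The highest among the members was 80.4%, in HS6ST1. Heat shock element cores were also searched on both strands, since the series title names a heat shock factor. Neither GAANNTTC (5.78% of all windows) nor TTCNNGAA (6.62%) was found in any window of the 8 members with an entry. The cAMP response element TGACGTCA (1.65% of all windows) was searched because the receptor signals through cAMP, and it was found in 1 member, B3GAT3, shown here with the element in capitals (chr11:62622195-62622222, minus strand).
B3GAT3: acgccggatgTGACGTCAccacccggtg

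The half-site TGACG, contained in that element, was present in 21.2% of all windows and among the members in B3GAT3 and EXTL2. All 250 bases of the EXTL2 window lie in an annotated GENCODE UTR, so its half-sites are in transcribed sequence by that annotation. Of the B3GAT3 window 189 bases do, and the stretch shown lies outside them. All these motif counts are matches of letters and say nothing of binding.

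The labelled cell type and the targets were checked first. Of 14 endothelial marker genes, 13 were listed in each table, among them CDH5, TEK, TIE1, ERG and KDR, and PECAM1 was not listed. Of smooth muscle and fibroblast markers 2 of 11 were listed (ACTA2 and TAGLN), of epithelial markers 1 of 5 (KRT19) and of blood cell markers 1 of 5 (CD68). CALCRL stood at 34.0% of its control under siRNA and at 36.2% after the deletion, computed from the authors' deposited tables. The deletion call of CALCRL was lost once a trend of fold change on GC content was removed, at -1.07 (adjusted p 0.0753). For HPRT1, against which the control guide was directed, the authors' deposited table gave -0.09 (SE 0.50) in the deletion arm, and with that trend removed the sign turned, to 0.19. An edited gene can keep its transcript, so this does not check the editing.

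After CALCRL siRNA, none of the 9 genes of chain assembly and sulfation other than HS3ST1 passed the test. HS3ST1, chosen for its fall in this arm, was the lowest member. Its values, ranks and interval are a description and were not adjusted for that choice. The authors' deposited table put HS3ST1 at a log2 fold change of -1.30 (SE 0.25), on a mean of 70.5 normalised counts. The implied group means were 100.3 normalised counts with scrambled siRNA and 40.6 with CALCRL siRNA. This is 40.5% of the control, and the 95% interval runs from 28.7% to 57.2%. By log2 fold change HS3ST1 ranked as number 7 from the lowest of 11261 genes, and by the Wald statistic, which weighs the change by its error, as number 66. Its SE was 1.27 times the median of the genes nearest in mean count. HS3ST1 thus combined a large fold change with a modest count.

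**Figure D1:**
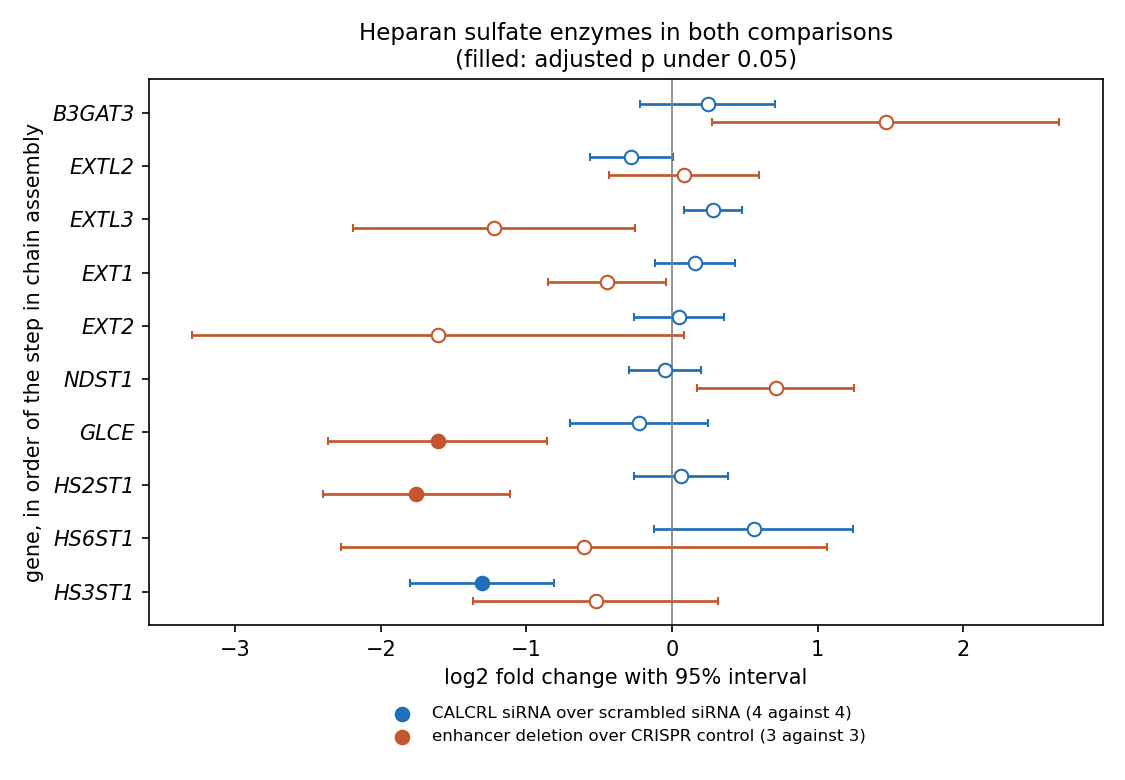
Log2 fold change (x axis) with its 95% interval for the 10 heparan sulfate genes (y axis, ordered by step in chain assembly), with siRNA in blue and deletion in orange; filled points have an adjusted p-value under 0.05. HS3ST1 is at -1.30 in the siRNA comparison, and HS2ST1 and GLCE are at -1.75 and -1.61 in the deletion comparison.

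In the siRNA comparison, 0 of the other 9 members passed an adjusted p of 0.05 in the authors' DESeq2 Wald test, and 1 of them, EXTL3, had an unadjusted p under 0.05. Over all genes the adjusted threshold was passed by 3.46% (2.42% lower and 1.05% higher), and the unadjusted one by 12%. The 9 had a median log2 fold change of 0.06, against 0.00 over all genes tested, and ranged from -0.28 to 0.56. Of the 10, the 1 that passed was HS3ST1, by which the set was chosen, and nothing is read from that count.

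The linkage unit and the first sugars of the chain come first in the pathway. B3GAT3, which adds the glucuronic acid that completes the linkage unit, was put at 0.24 (SE 0.24, adjusted p 0.819) under siRNA by the authors' deposited table, with a mean of 38.4 normalised counts. EXTL3, which starts the heparan sulfate chain on that unit, was put at 0.28 (SE 0.10, adjusted p 0.103) by the authors' deposited table. Its implied means were 319 normalised counts with scrambled siRNA and 388 with CALCRL siRNA, with bounds from 106% to 139% of the control. EXTL2, an N-acetylhexosaminyltransferase that acts on the linkage unit, was put at -0.28 (SE 0.15, adjusted p 0.428) by the authors' deposited table, from 371 to 305 normalised counts. None of these 3 passed the threshold.

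EXT1 and EXT2 form the polymerase that lengthens the chain. The authors' deposited table put EXT1 at 0.16 (SE 0.14, adjusted p 0.788) and EXT2 at 0.05 (SE 0.16, adjusted p 0.981) under siRNA. The intervals ran from 92.3% to 135% of the control for EXT1 and from 83.4% to 128% for EXT2.

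NDST1 removes acetyl groups and adds N-sulfate, the step on which the later ones depend. It was put at -0.05 (SE 0.13, adjusted p 0.976) under siRNA by the authors' deposited table, and its interval ran from 81.4% to 115% of the control. GLCE, the epimerase that turns glucuronic into iduronic acid, was put at -0.23 (SE 0.24, adjusted p 0.854) by the authors' deposited table, and its interval ran from 61.6% to 119%. HS2ST1, which sulfates that iduronic acid, was put at 0.06 (SE 0.17, adjusted p 0.976) by the authors' deposited table, and its interval ran from 83.4% to 131%. HS6ST1, the 6-O-sulfotransferase, was put at 0.56 (SE 0.35, adjusted p 0.579) by the authors' deposited table, on a mean of only 17.3 normalised counts. Its interval, from 91.9% to 237%, includes both no change and more than a doubling.

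**Figure D2:**
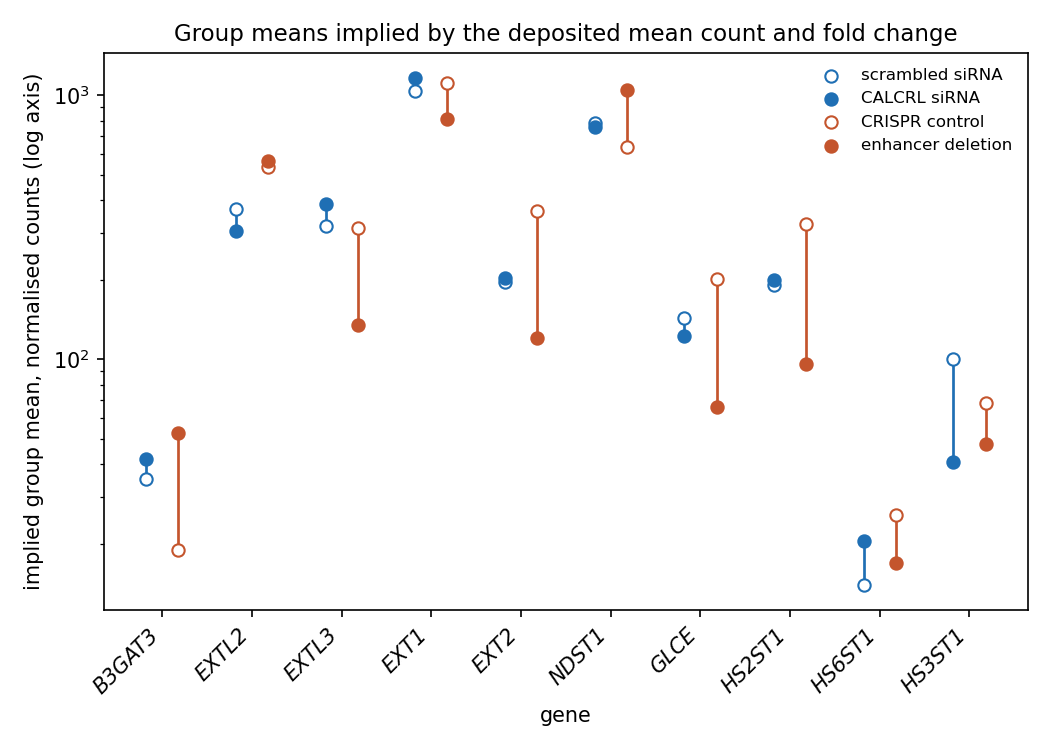
Implied group means in normalised counts (y axis, log scale) for the 10 genes (x axis), computed from the deposited mean count and fold change; open points are the control groups and filled points the treated groups, and the arms were normalised separately. HS3ST1 goes from 100.3 to 40.6 in the siRNA arm, and HS2ST1 from 325 to 96.3 in the deletion arm.

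After the enhancer deletion, HS2ST1 and GLCE, which act on the uronic acid of the chain, were lower, and HS3ST1 did not pass the threshold. The authors' deposited table put HS2ST1 at -1.75 (SE 0.33, adjusted p 1.75e-05). Its implied means were 325 normalised counts in the CRISPR control and 96.3 after the deletion, which is 29.6% of the control (95% interval from 19.0% to 46.3%). The authors' deposited table put GLCE at -1.61 (SE 0.38, adjusted p 0.00123). Its implied means were 201 and 65.8 normalised counts, or 32.8% of the control (interval from 19.5% to 55.3%). Both had the SE usual for their mean count, at 0.982 and 1.02 times the median of like genes. These 2 calls were lost when the Wald statistics were scaled by their robust SD (adjusted p 0.828 and 0.976) or read against a Student t distribution (0.357 each), settings under which 0 genes of the whole table passed, with 534 and 1646 at an unadjusted p under 0.05.

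Calls were common in this arm: 15.8% of all genes passed the threshold, 8.44% lower and 7.4% higher. The 2 of 10 members (20%) that passed are close to that share. For an unadjusted p under 0.05 the count was 6 of 10 members, against 29.7% of all genes. With the GC trend removed it was 3 of 10, against 26.9% of all genes. Under the t reference and the robust SD it was 2 of 10, against 13.9% and 4.51%. The median log2 fold change of the members was -0.56, against 0.00 over all genes tested, and 7 of the 10 were below 0.

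HS3ST1 was put at -0.52 (SE 0.43, adjusted p 0.434) after the deletion by the authors' deposited table. Its implied means were 68.2 normalised counts in the control and 47.5 after the deletion. The interval from 38.9% to 125% of the control includes both the siRNA estimate of 40.5% and no change. For this gene the siRNA and deletion values are set side by side only, since the first was the reason for its choice.

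Among the genes that build the chain, B3GAT3 was put at 1.47 (SE 0.61, adjusted p 0.0781) after the deletion by the authors' deposited table, from 18.9 to 52.3 normalised counts. EXTL3 was put at -1.22 (SE 0.49, adjusted p 0.0705) by the authors' deposited table, from 314 to 135 normalised counts. With the GC trend removed, EXTL3 passed the threshold at -1.72 (adjusted p 0.00951), and at -1.42 (adjusted p 0.0372) with GC content taken over the whole transcript. EXT1 was put at -0.45 (SE 0.21, adjusted p 0.122) by the authors' deposited table, from 1108 to 814 normalised counts. EXT2 was put at -1.61 (SE 0.86, adjusted p 0.194) by the authors' deposited table. That SE was 2.67 times the median of genes with a like mean count, and the interval ran from 10.2% to 106% of the control. EXT2 and GLCE thus had the same estimate to 2 decimals with very different precision. EXTL2 was put at 0.09 (SE 0.26, adjusted p 0.866) by the authors' deposited table.

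Of the remaining sulfation genes, NDST1 was put at 0.71 (SE 0.28, adjusted p 0.0576) by the authors' deposited table, from 637 to 1045 normalised counts. It passed the threshold (adjusted p 0.0461) when the adjustment covered only genes whose mean reached 50 normalised counts. HS6ST1 was put at -0.60 (SE 0.85, adjusted p 0.678) by the authors' deposited table, with bounds from 20.7% to 209% of the control.

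GC content near the 3' end moved with the fold changes of this arm. The median log2 fold change rose from -0.27 in the lowest of 10 groups of genes by GC content of the last 500 transcript bases to 0.60 in the highest. HS2ST1 (34.6% GC), GLCE (36.8%), HS3ST1 (33.8%), EXT1 (34.0%) and EXTL2 (34.0%) lay at the low end. NDST1 (52.2%) and B3GAT3 (62.6%), the members with the highest estimates, lay at the high end, as did EXTL3 (59.4%), whose estimate was below 0. With the trend removed HS2ST1 was at -1.53 (adjusted p 0.000248) and GLCE at -1.41 (adjusted p 0.00589), so both still passed. NDST1 was then at 0.46 (adjusted p 0.279) and B3GAT3 at 0.88 (adjusted p 0.364). HS3ST1 moved to -0.30 (adjusted p 0.706), EXT1 to -0.22 (adjusted p 0.525) and EXTL2 to 0.31 (adjusted p 0.474). In the siRNA arm the medians of the 10 groups lay between -0.03 and 0.03.

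**Figure D3:**
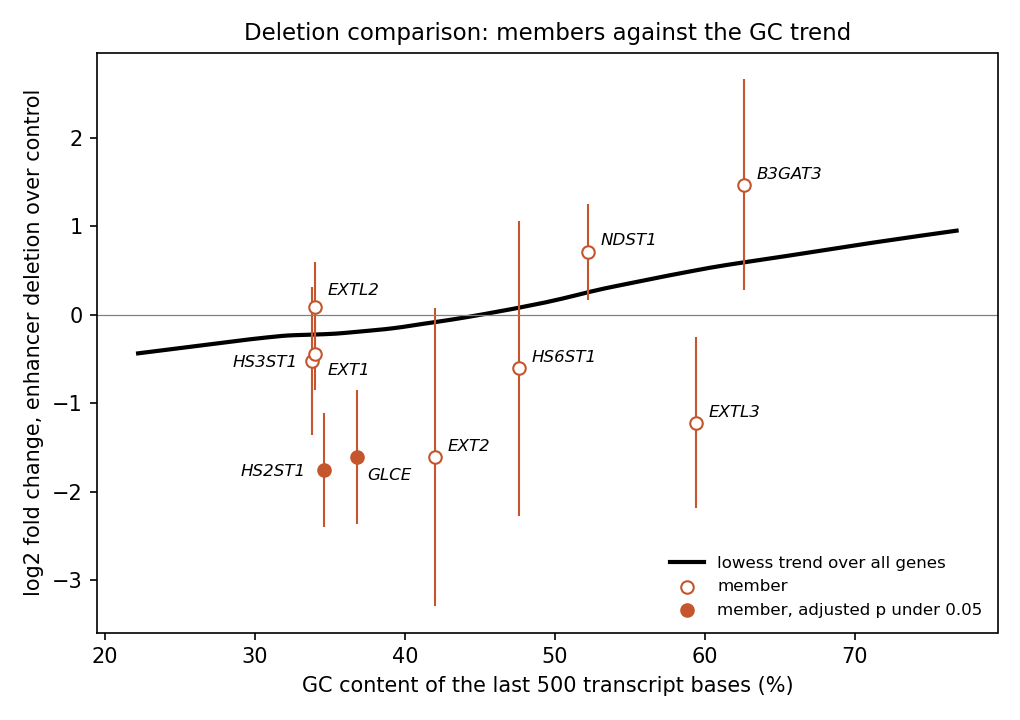
Log2 fold change after the enhancer deletion with its 95% interval (y axis) against GC content of the last 500 transcript bases (x axis, percent) for the 10 genes; the black line is the lowess trend over all genes and filled points have an adjusted p-value under 0.05. HS2ST1 and GLCE lie below the line at 34.6% and 36.8% GC, and EXTL3 lies below it at 59.4%.

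Of the 13 listed endothelial markers, 2 (15.4%) passed in this arm, both lower, close to the 15.8% of all genes, and the median of the 13 was -0.01. The authors' deposited table put CDH5, the gene of VE-cadherin, at -1.44 (SE 0.35, adjusted p 0.00142) and KDR, a VEGF receptor gene, at -1.05 (SE 0.31, adjusted p 0.00966). EGFL7 was at 0.05 in the authors' deposited table and at -0.63 (adjusted p 0.0425) with the GC trend removed. With GC content taken over the whole transcript it was at -0.57 and did not pass (adjusted p 0.0637). Under siRNA 1 of the 13 passed, EGFL7, which the authors' deposited table put at -0.46 (SE 0.11, adjusted p 0.00213). The summed implied level of the 13 was 10152 normalised counts in the control and 9211 after the deletion, and in the siRNA arm 11242 and 10781. Abundant markers weigh most in this sum, and after the deletion 6 of the 13 were above 0 and 7 below. CDH5 went from 1375 to 508 and ESAM from 1507 to 901, while ENG went from 1246 to 1878 and ROBO4 from 2066 to 2489. The part of either the GC trend or these markers in the members' changes was not tested.

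The effects of the arms differed in 3 of the 9 members other than HS3ST1, by a test of the difference over 10891 genes listed in both tables (normal reference, Benjamini-Hochberg adjustment). Over all these genes 13.7% passed, 7.22% with the siRNA value higher and 6.49% with it lower. Scaling by the robust SD or a Student t reference left 0 members and 0 genes, with 447 and 2461 genes at an unadjusted p under 0.05. The siRNA log2 fold change of HS2ST1 was above that of the deletion by 1.82 (SE 0.37, adjusted p 0.000146). For EXTL3 the difference was 1.50 (SE 0.50, adjusted p 0.0284), and for GLCE 1.38 (SE 0.45, adjusted p 0.0254). With the GC trend removed GLCE lost the threshold, at 1.20 (adjusted p 0.0631). NDST1 differed by -0.76 (SE 0.30, adjusted p 0.0721) and EXT1 by 0.60 (SE 0.25, adjusted p 0.0824), both short of the threshold. The other 4 members (B3GAT3, EXT2, EXTL2 and HS6ST1) had an adjusted p from 0.194 to 0.438. The arms also differ in delivery, time and control, and the causes of a difference cannot be told apart.

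The other genes of the pathway were taken from 8 lists with 76 names, in which BPNT2 is a newer symbol of IMPAD1. These lists too were drawn up with earlier results of these data known. Of these, 49 were listed after siRNA and 47 after the deletion. Under siRNA 6 of the 49 (12.2%) passed the threshold, 5 lower and 1 higher, against 3.46% of all genes. The 49 had a median log2 fold change of 0.06. Scaling by the robust SD left 3 of the 6 calls and a Student t reference left 0. After the deletion 8 of the 47 (17%) passed, 6 lower and 2 higher, close to the 15.8% of all genes, with a median of -0.48.

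Of the sulfation paralogs few were listed. HS3ST2, another 3-O-sulfotransferase, was listed in the siRNA table only, where the authors' deposited table put it at 0.12 (SE 0.38) on a mean of 8.82 normalised counts. NDST2, NDST3, NDST4, HS6ST2, HS6ST3 and the other HS3ST genes searched were listed in neither table. Of the 3-O-sulfotransferase genes searched, HS3ST1 was the one listed in both.

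Every sulfotransferase draws on the supply of activated sulfate. Of the 12 listed genes of sulfate and sugar nucleotide supply, 3 were lower and 1 higher past the threshold under siRNA (2.42% and 1.05% of all genes), with a median of -0.08. With the robust SD 2 lower genes were left. PAPSS1, which makes the sulfate donor PAPS, was put at -0.64 (SE 0.15, adjusted p 0.00163) by the authors' deposited table, from 269.5 to 173 normalised counts. IMPAD1, a Golgi phosphatase that clears the by-product of sulfation, was put at -0.48 (SE 0.09, adjusted p 9.63e-06) by the authors' deposited table, from 964 to 689 normalised counts. SLC26A2, a sulfate transporter of the plasma membrane, was put at -0.30 (SE 0.09, adjusted p 0.0440) by the authors' deposited table, from 654 to 533 normalised counts. SLC26A2 lost the threshold with the GC trend removed (adjusted p 0.0632) and with the statistics scaled by their robust SD (0.122). SLC35D1, which carries sugar nucleotides into the endoplasmic reticulum, was the higher one, put at 0.87 (SE 0.24, adjusted p 0.0152) by the authors' deposited table, from 24.8 to 45.3 normalised counts, and at an adjusted p of 0.0534 it missed the threshold with that scaling. PAPSS2, the paralog of PAPSS1, was put at -0.35 (SE 0.16, adjusted p 0.325) by the authors' deposited table and did not pass.

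After the deletion the 3 supply genes picked for being lower under siRNA were below their controls, none past the threshold. The authors' deposited table put PAPSS1 at -0.79 (SE 0.40, adjusted p 0.162), IMPAD1 at -0.56 (SE 0.25, adjusted p 0.104) and SLC26A2 at -0.48 (SE 0.23, adjusted p 0.135). With the GC trend removed they were at -0.52, -0.38 and -0.25 (adjusted p 0.422, 0.326 and 0.508). The differences between the arms did not pass for any of them: 0.15 (SE 0.43, adjusted p 0.855) for PAPSS1, 0.08 (SE 0.27, adjusted p 0.885) for IMPAD1 and 0.18 (SE 0.25, adjusted p 0.664) for SLC26A2. All 3 differences changed sign with the GC trend removed, to -0.10, -0.09 and -0.03. Of the same list, SLC35B3, a Golgi transporter of PAPS, was the 1 gene called after the deletion, put at -1.64 (SE 0.48, adjusted p 0.00934) by the authors' deposited table. SLC35D1 and PAPSS2 changed sign between the arms. After the deletion SLC35D1 was put at -0.71 (SE 0.61, adjusted p 0.457) and PAPSS2 at 0.16 (SE 0.22, adjusted p 0.659) by the authors' deposited table. Of the 12 listed genes 8 were below 0 in each arm.

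The word GTAACAA, which earlier work on these data had picked out in 3' UTRs of genes lower under siRNA, was looked up on the transcript strand in the annotated 3' UTRs of the pathway genes. It was present in 10.6% of 10905 annotated 3' UTRs. HS3ST1 does not hold it in an annotated 3' UTR of 5932 bases, where 24.1% of the 1000 genes of most like length do. Of the 50 pathway genes with an annotated 3' UTR 6 hold it, a share near that of all genes, and 4 of the 6 (CHST11, DSE, PAPSS2 and SLC35A3) were not called under siRNA. Among the members EXT2 holds it, and among the 5 other pathway genes lower under siRNA PAPSS1 and IMPAD1 do, while HSPG2, SLC26A2 and CHSY1 do not. The share of genes of like UTR length with the word was 4.9% for EXT2, 2.5% for PAPSS1 and 24.1% for IMPAD1. Since the word was picked from lower genes of these same data, its presence in lower genes is no separate evidence. The sites of PAPSS1 (chr4:107614194-107614220, minus strand) and EXT2 (chr11:44244592-44244618, plus strand, GRCh38) are shown with the word in capitals, as a lower gene and one that did not pass.
PAPSS1: cacattactaGTAACAAgaggggacca
EXT2: tcagttccatGTAACAAtctggaagga

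Both sites carry the word, while the siRNA estimates were -0.64 for PAPSS1 and 0.05 for EXT2 in the authors' deposited table. Whether the siRNA acts through such a site was not tested.

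The core proteins that carry the chains gave 1 call under siRNA. HSPG2, the gene of perlecan, the large proteoglycan of the vascular basement membrane, was put at -0.72 (SE 0.15, adjusted p 0.000106) by the authors' deposited table, from 2510.4 to 1520.2 normalised counts. After the deletion HSPG2 was put at 0.94 (SE 0.39, adjusted p 0.0753) by the authors' deposited table, from 1929 to 3698 normalised counts. The difference between the arms passed its test at -1.66 (SE 0.41, adjusted p 0.00261), and did not with the GC trend removed, at -1.08 (adjusted p 0.0674). The SE of HSPG2 was 1.48 times that of like genes under siRNA and 1.71 times after the deletion.

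Cell surface and matrix core proteins passed in the deletion table in both directions. The authors' deposited table put GPC1, a lipid-anchored glypican, at 1.00 (SE 0.32, adjusted p 0.0179) and COL18A1, the collagen that gives rise to endostatin, at 0.86 (SE 0.30, adjusted p 0.0319). SDC1, a transmembrane syndecan, was put at -1.29 (SE 0.42, adjusted p 0.0224) by the authors' deposited table. GPC1 and COL18A1 lost the threshold with the GC trend removed, at 0.46 (adjusted p 0.363) and 0.38 (adjusted p 0.426). Under siRNA the authors' deposited table put SDC1 at 0.31, SDC3 at 0.27, SDC4 at 0.10 and GPC1 at 0.15, none past the threshold. SDC2 was not listed. With 11 core protein genes listed in each table, 1 passed under siRNA, where 3.46% of all genes did, and 3 after the deletion, where 15.8% did. With the GC trend removed SDC1 was the 1 call left in the deletion table.

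**Figure D4:**
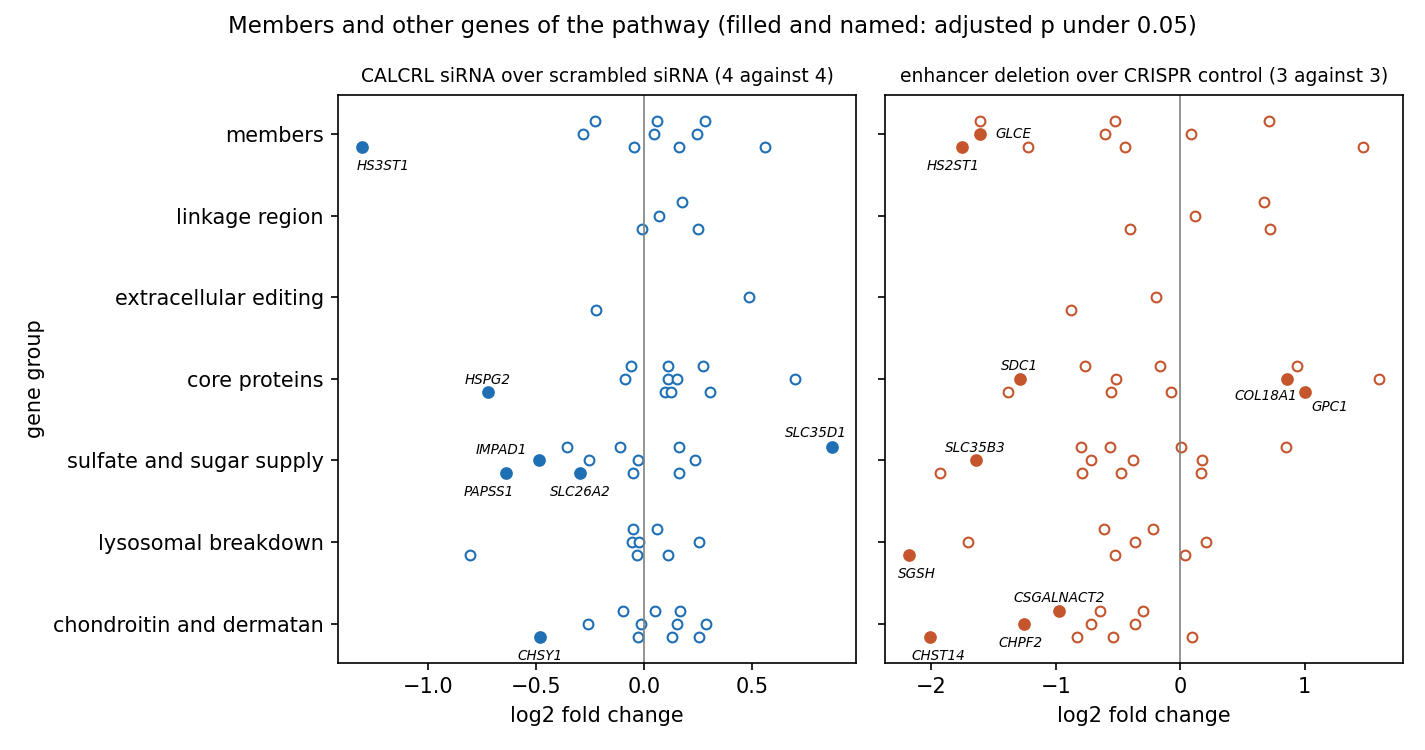
Log2 fold changes (x axis, scales differ) of the 10 members and of 6 groups of other pathway genes (y axis) in the siRNA comparison (left) and the deletion comparison (right); filled, named points have an adjusted p-value under 0.05. Of the sulfate and sugar supply genes PAPSS1, IMPAD1 and SLC26A2 are lower and SLC35D1 higher under siRNA, and HS3ST2 is not drawn.

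The linkage genes and the enzymes that edit finished chains gave no call in either arm by the deposited adjusted p. Of XYLT2, B4GALT7, B3GALT6 and FAM20B, 0 of 4 passed the DESeq2 Wald test. The counts with an unadjusted p under 0.05 were 0 under siRNA and 2 after the deletion, against 12% and 29.7% of all genes. The 2 were the galactosyltransferases of the linkage unit, B3GALT6, put at 0.72 (SE 0.28, adjusted p 0.0584) by the authors' deposited table, and B4GALT7, put at 0.68 (SE 0.29, adjusted p 0.0872). With the GC trend removed they were at 0.38 (adjusted p 0.398) and 0.32 (adjusted p 0.514). B3GALT6 passed the threshold (adjusted p 0.0468) when the adjustment covered only genes whose mean reached 50 normalised counts. HPSE, the heparanase that cuts the chains, was put at 0.48 (SE 0.28, adjusted p 0.511) under siRNA and -0.88 (SE 0.40, adjusted p 0.111) after the deletion by the authors' deposited tables. SULF2, which removes 6-O-sulfate outside the cell, was put at -0.22 (SE 0.19, adjusted p 0.770) and -0.19 (SE 0.41, adjusted p 0.793) by the authors' deposited tables.

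The genes most like HS3ST1 over the 2 comparisons were found by the distance between pairs of log2 fold changes, among genes whose mean reached 50 normalised counts in both tables. The 5 nearest were AASDHPPT (distance 0.28), PURB (0.33), PRKAA2 (0.40), EXOC8 (0.41) and UBAC2 (0.42). In the authors' deposited tables their siRNA log2 fold changes ran from -1.23 for PRKAA2 to -0.89 for UBAC2. Their deletion log2 fold changes in the authors' deposited tables ran from -0.58 for UBAC2 to -0.13 for PRKAA2, none past the threshold. By distance in Wald statistics 5 other genes were nearest (NQO1, SOX17, FAR2, PIK3R1 and ATP5G3), and 0 were shared.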

How the data were processed

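RNA was measured in 14 libraries with a 3' mRNA kit that reads near the polyadenylated end, per the labels' protocols. The authors counted reads with featureCounts and compared groups with DESeq2, per the file names, and deposited for each gene a mean normalised count, a log2 fold change with SE, its Wald statistic as a score, and raw and adjusted p-values. The submitters' processing notes list hg19 and edgeR 3.24.3 without a role. The aligner and annotation are not given in the sources used here, nor whether counting used the strand. EXTL2 and NDST1 overlap annotated genes on the other strand, as does EXTL3, and HS2ST1 overlaps one on its own strand, so their counts may be mixed. Library depths are unknown. The deposited statistic equalled fold change over SE, and the adjusted p-value the Benjamini-Hochberg value over all tested genes.

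From these values 95% intervals (normal), group means (2 groups of equal size) and the arm difference were computed (numpy 2.4.6, scipy 1.17.1). The test of the arm difference was tried on simulated normal values drawn with the deposited SEs. That cannot show whether those SEs and the normal reference hold in the real data. There the Wald statistics of the deletion arm had a robust SD of 1.88. GC content came from the GENCODE release 29 transcript with the longest 3' UTR, and its trend from lowess (span 0.3, statsmodels 0.14.6). SE ratios used the 501 genes nearest in mean count.

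Members and lists were chosen with earlier results of these data known. Named genes were the members, pathway genes at an adjusted p-value under 0.05 in either table, 10 further pathway genes where listed, the targets and the 5 genes nearest to HS3ST1. CDH5, KDR, EGFL7, the other markers given with values, SLC35A3 and the genes named by count were chosen after their values were seen. Count models, for which the design allowed, need values per library and were replaced by the deposited test. Alternatives were a t reference, scaling by a robust SD, a count minimum, removal of the GC trend, centring and a looser threshold.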

Additional observations from a re-analysis of the deposited data

Results flagged for a closer look

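Several genes had effects that differed between the siRNA and the deletion arm by a direct test of the difference. The test used a normal reference with Benjamini-Hochberg adjustment over 10891 genes, of which 13.7% passed. In the values that follow, a positive difference means a higher log2 fold change under siRNA. Of the heparan sulfate enzymes these were HS2ST1 (1.82), EXTL3 (1.50) and GLCE (1.38). Among core proteins they were HSPG2 (-1.66), SDC1 (1.60) and COL18A1 (-0.92). HPSE differed by 1.36, the lysosomal sulfatase gene SGSH by 2.24 and the PAPS transporter gene SLC35B3 by 1.61. SLC35A3, of the sulfate and sugar nucleotide supply list, differed by -1.10 (adjusted p 0.0378). Of chondroitin sulfate synthesis, CHST14 differed by 2.27, CHPF2 by 1.31 and CSGALNACT2 by 1.10. None of these genes was past the threshold when its statistic was scaled by the robust SD of all genes or read against a Student t distribution. These settings left 0 genes of the whole table, with 447 and 2461 at an unadjusted p-value under 0.05. With the GC trend removed GLCE (1.20), HSPG2 (-1.08), COL18A1 (-0.46), HPSE (1.15) and CSGALNACT2 (0.77) no longer passed, with an adjusted p from 0.0631 to 0.363. The cause of the differences was not tested.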

How the results depend on the processing

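No paired analysis was possible because per-library values are not among the files used. Leaving out each replicate and the count models were not run either. A Student t reference left 0 members called under siRNA (1 as deposited, HS3ST1, chosen by that value), 0 after the deletion (2) and 0 in the arm difference (3). The same reference left 5 of all genes under siRNA and 0 after the deletion and in the difference, with 774, 1646 and 2461 at an unadjusted p-value under 0.05, and 0 genes of the 8 pathway lists in either arm. Division by the robust SD left 0 members and 0 genes of any kind after the deletion and in the difference (534 and 447 at an unadjusted p-value under 0.05), and 3 of the 6 list genes under siRNA. An adjusted p-value under 0.1 gave 5 of 10 members after the deletion, 2 higher and 3 lower, against 22.9% of all genes. The 5 genes nearest to HS3ST1 became 5 others by Wald statistics, with 0 shared. The cause of these changes was not tested. GC removal over the whole transcript was chosen after the data were seen. No member changed sign in either arm under any setting. EGFL7 turned from 0.05 to -0.63 after the deletion with the GC trend removed and then passed (adjusted p 0.0425). With GC content over the whole transcript EGFL7 was at -0.57 and did not pass (adjusted p 0.0637). CDH5 under siRNA and HPRT1 after the deletion also changed sign with the trend removed, neither past the threshold. Library depths are unknown.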

Other observations

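Chondroitin and dermatan sulfate chains are built on the same linkage unit as heparan sulfate and use the same sulfate donor. Under siRNA 1 of 11 listed genes of their synthesis passed the threshold, where 3.46% of all genes did. It was CHSY1, a chondroitin polymerase gene, put at -0.48 (SE 0.14, adjusted p 0.0203) by the authors' deposited table, from 219 to 157 normalised counts. CHSY1 did not pass with the Wald statistics scaled by their robust SD (adjusted p 0.0671). After the deletion 3 of 10 passed, all lower, where 8.44% of all genes were lower, and 9 of the 10 were below 0. The authors' deposited table put CHST14, the dermatan 4-O-sulfotransferase gene, at -2.01 (SE 0.65, adjusted p 0.0206). CHPF2, of the chondroitin polymerase family, was put at -1.25 (SE 0.43, adjusted p 0.0299) and CSGALNACT2, which starts the chondroitin chain, at -0.97 (SE 0.29, adjusted p 0.0118) by the authors' deposited table. CSGALNACT2 lost the threshold with the GC trend removed, at -0.62 (adjusted p 0.139). In the siRNA table the SE of CHST14 was 2.91 times that of genes with a like mean count.

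Of the 8 listed genes of lysosomal heparan sulfate breakdown, 0 passed under siRNA, where 3.46% of all genes did, with 1 (IDS) at an unadjusted p under 0.05 by the DESeq2 Wald test. After the deletion 1 of 8 (12.5%) passed, close to the 15.8% of all genes. It was SGSH, the gene of the sulfatase that removes N-sulfate, put at -2.18 (SE 0.65, adjusted p 0.0109) by the authors' deposited table. SGSH went from 219.7 to 48.5 implied normalised counts, and its SE was 1.71 times that of like genes.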
